A study of Saccharomyces cerevisiae with 161 samples.

Results

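Red1 is a structural protein of the meiotic chromosome axis, and the positions described here are the summits of its chromatin immunoprecipitation (ChIP-seq) signal on chromosomes I, III and VI of budding yeast, the 3 shortest of 16 chromosomes. A summit is the single base at which the peak caller placed the top of a Red1 peak. The members were chosen by chromosome name alone, which gave 230 of the 2385 wild-type summits, with 64 on chromosome I, 83 on chromosome III and 83 on chromosome VI. The choice used no summit value, although it was made with earlier results of these data known.

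In meiotic prophase, yeast chromosomes fold into arrays of chromatin loops whose bases are held along a protein axis. Rec8 is the meiosis-specific subunit of the cohesin ring and gathers mainly between convergent genes. Red1 binds to these sites and to Hop1, a HORMA-domain protein, and Red1 and Hop1 together promote the formation of meiotic DNA breaks and direct their repair to the homologous chromosome. Short yeast chromosomes are known for having more axis protein and more meiotic recombination for their length than long ones. A summit inside a Rec8 peak therefore lies where cohesin was also found enriched, and a summit outside one lies where it was not.

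The cells were wild-type Saccharomyces cerevisiae of the SK1 background, taken 3 h after the induction of meiosis. By the labels, Red1 was immunoprecipitated in 4 wild-type samples, Hop1 in 4 and Rec8, through an HA tag, in 2, and among these 1 Red1 and 1 Hop1 sample came from an SMC4-PK9 strain, in which the condensin subunit Smc4 carries a Pk9 tag. The study as a whole compares axis proteins along wild-type and mutant chromosomes. All replicates of a protein were combined into 1 list, so no value below has a replicate error, and without read counts in the lists their depth is unknown.

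Chromosomes were measured over their span, meaning the stretch between the outermost interval edges of all lists, in SK1 coordinates. The span was 214 kb on chromosome I (4305 to 218716), 330 kb on chromosome III (482 to 330405) and 280 kb on chromosome VI (9549 to 290006). Chromosome IX, with 409 kb, was the next in length. Each tested comparison below set the 3 chromosomes against the other 13 with the chromosome as the unit, in a two-sided exact permutation test. The 560 possible sets of 3 chromosomes limit its p to 0.00179 at the least. The p-values were adjusted over 12 measures.

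Red1 summits were closer together on all 3 of these chromosomes than on any of the other 13. The 3 chromosomes held 9.64% of all summits on 7.07% of the total span. Chromosome I had 2.98 summits per 10 kb of span, chromosome VI had 2.96 and chromosome III had 2.52, against 1.85 to 2.4 on the other 13, with the highest of these on chromosome IX. The groups did not overlap. The mean density was 2.82 against 2.02 summits per 10 kb (exact permutation test, p = 0.00179, the smallest possible, adjusted p = 0.00429). Among summits whose score was at or above the median of the whole list (168.7), the density was 1.30 against 1.02, so the difference was 0.29 per 10 kb (exact permutation test, adjusted p = 0.0171) in place of 0.80.

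**Figure D1:**
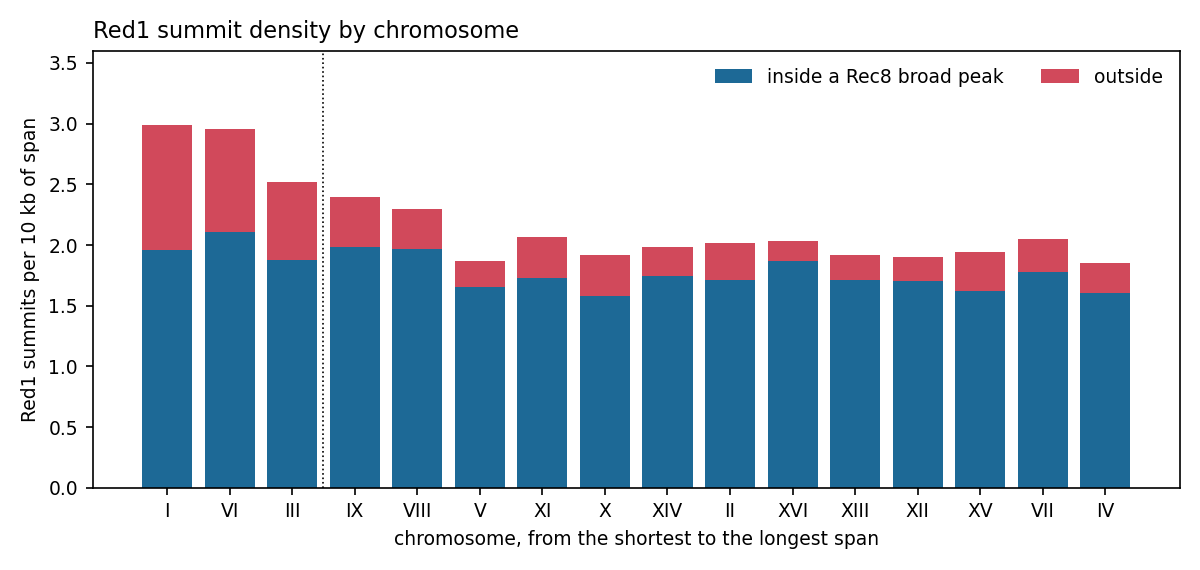
Red1 summits per 10 kb of span (vertical axis, starting at 0) for each of the 16 chromosomes, ordered from the shortest to the longest span, with the bars divided into summits inside (blue) and outside (red) a Rec8 broad peak. The 3 bars left of the dotted line reach 2.98, 2.96 and 2.52, above the 2.4 of chromosome IX, and their red parts are the tallest of all.

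Over all scores together, most of the higher density came from summits that did not lie in a Rec8 peak. Per 10 kb of span, summits inside Rec8 peaks numbered 1.96 on chromosome I, 1.88 on chromosome III and 2.1 on chromosome VI, against 1.58 to 1.98 on the others. Summits outside Rec8 peaks numbered 1.03, 0.637 and 0.856 per 10 kb of span, against 0.168 to 0.416. The first ranges overlapped and the second did not. Of the difference between the mean densities, 70.4% lay outside Rec8 peaks, which is a description of the same counts and was not tested by itself. Among summits at or above the list median score, 92.3%, 92.9% and 97.5% lay inside Rec8 peaks on chromosomes I, III and VI. The summits outside were thus mainly lower-scoring, and the 70.4% was not worked out for higher-scoring summits alone.

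The distance from one summit to the next was short on each of the 3 chromosomes. The median spacing was 2343 bp on chromosome I, 2112 bp on chromosome III and 2395 bp on chromosome VI, whereas the medians of the other 13 ran from 2598 bp on chromosome IX to 4240 bp on chromosome XIII. The means of these medians were 2283 and 3410 bp (exact permutation test, p = 0.00179, adjusted p = 0.00429). Among the higher-scoring summits alone the median spacing averaged 5166 against 8075 bp (adjusted p = 0.0107 in the exact permutation test).

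The shortening was found in the middle and upper part of the distances rather than among close neighbours. On chromosome I the quartiles of the spacing were 1291, 2343 and 3903 bp, on chromosome III 1141, 2112 and 3940 bp, and on chromosome VI 1130, 2395 and 4694 bp. The upper quartiles of the other chromosomes were all larger, from 5808 to 8197 bp, but their lower quartiles, from 1092 to 1528 bp, enclosed those of all 3. Distances of up to 5 kb made up 87.3% on chromosome I, 76.8% on chromosome III and 79.3% on chromosome VI, against 57.5% to 71.2%. Very close pairs were not more frequent. Distances of up to 1000 bp made up 22.0% on chromosomes III and VI, within the range of 16.2% to 24.3% of the others, and 9.52% on chromosome I, the lowest of all 16 chromosomes. The smallest distance was 562 bp on chromosome I, 479 bp on chromosome III and 401 bp on chromosome VI, and no distance on chromosome I was 500 bp or less.

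**Figure D2:**
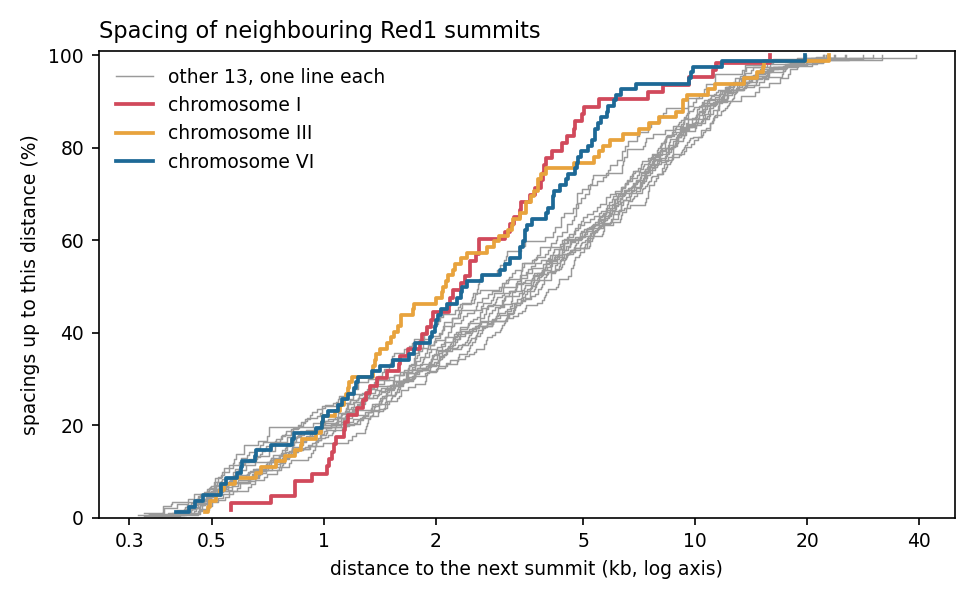
Cumulative share of spacings (vertical axis, percent) up to a given distance to the next Red1 summit (horizontal axis, kb, logarithmic), with 1 coloured step line for each of chromosomes I, III and VI and a grey line for each of the other 13. The coloured lines lie above most of the grey ones in the middle of the range, and the line of chromosome I starts lower, with 9.52% of its spacings at up to 1000 bp.

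Chromosome III combined the shortest median spacing with long empty stretches, and its spacing was the most uneven. The ratio of the mean to the median spacing was 1.78 on chromosome III, the highest of 16 chromosomes, and 1.36 and 1.39 on chromosomes I and VI. The coefficient of variation was 1.12 on chromosome III, again the highest, against 0.905 on chromosome I, 0.917 on chromosome VI and 0.897 to 1.04 on the others. These values describe 1 list and have no error.

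Runs of summits, defined as at least 3 summits each no more than 2000 bp from the next, were common on the short chromosomes. There were 7 runs on chromosome I, 7 on chromosome III and 10 on chromosome VI, which together held 92 of the 230 summits. The share of summits in runs was 42.2%, 38.6% and 39.8%, against 17.1% to 34.3% on the others, and the means were 40.2% and 27.9% (exact permutation test, p = 0.00179, adjusted p = 0.00429). This difference depended on the definition and on the low-scoring summits. With steps of up to 1000 bp the share was 7.30% against 9.0%, and with the higher-scoring summits alone it was 5.00% against 2.59% (exact permutation test, adjusted p = 0.407 and 0.551). A share counted with a fixed step also depends on the summit density, so the test cannot show clustering beyond the closer spacing.

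The run with the most summits of the whole genome lay on chromosome III. It held 12 summits from 98695 to 109104, spaced by 494 to 1384 bp, whereas no run on the other 13 chromosomes had more than 8. All 12 summits lay inside Rec8 peaks, which were 3 in number, and 8 of the 12 lay in a single Rec8 peak from 103221 to 111674. They also lay in 1 broad Red1 peak, from 98521 to 109348, and in Hop1 peaks. Their scores were low to moderate, from 43.0 to 451 with a median of 113, and the broad Red1 peak had a mean enrichment over input of 1.42-fold. A gap of 15186 bp without a summit followed directly after the last of them. The other 2 leading runs of chromosome III held 4 summits each, from 82485 to 86578, with 3 of them inside a Rec8 peak and a top score of 1757, and from 302879 to 306780, with all 4 inside and a top score of 480.

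On chromosome I the leading run differed from that of chromosome III in its place relative to Rec8. It held 6 summits from 205429 to 212904, close to the right end of the span, and 2 of these 6 were inside a Rec8 peak. Its scores went up to 165 with a median of 64.4. The next run, from 154419 to 159692, held 5 summits that all lay in a single Rec8 peak, and the last of them had a score of 2572. A further run held 4 summits from 216283 to 218519, ended 197 bp before the end of the span, and lay wholly in Rec8.

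Runs on chromosome VI were more numerous and shorter. The longest held 5 summits from 189588 to 194529, with 4 inside Rec8 peaks and a top score of 2559, and a run of 4 from 226228 to 228562 had 2 inside. Of the runs of 3, the widest extended from 119098 to 122045, wholly within a Rec8 peak, with a top score of 1603. Chromosome VI was the only one of these 3 chromosomes with runs that had no summit in a Rec8 peak. There were 2 of these, from 44470 to 46025 and from 184966 to 186916, each with 3 summits inside a Hop1 peak and with top scores of 85.6 and 105.2. They were singled out after their values had been seen.

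Summits in runs had lower scores than the rest on all 3 chromosomes. The median score was 77.7 in runs and 212 outside runs on chromosome I, 117 and 257 on chromosome III, and 85.6 and 246 on chromosome VI. On chromosome III the runs were mostly placed in Rec8 peaks, with 28 of their 32 summits inside (87.5%) against 66.7% of the summits outside runs. The order was the other way on chromosome VI, with 21 of 33 (63.6%) in runs against 76.0% elsewhere, and on chromosome I the shares were 66.7% and 64.9%. None of these differences within a chromosome was tested, since neighbouring summits are not independent.

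Long gaps between neighbouring summits, of 10 kb or more, numbered 3 on chromosome I, 7 on chromosome III and 2 on chromosome VI. Per 100 kb of span these were 1.40, 2.12 and 0.713 gaps, against 2.20 to 3.50 on the others, so that chromosome III lay close to chromosome IX at 2.20. They took up 17.9%, 31.4% and 11.2% of the span, against 28.4% to 47.0% on the others, and chromosome III overlapped with the other 13 and chromosomes I and VI did not. On average the share was 20.2% and 38.8% (exact permutation test, p = 0.00357, adjusted p = 0.00714). It also depends on the summit density, so its test is not separate from that of density. With a minimum of 15000 bp the shares were 10.2% and 15.3%, and the difference no longer passed the test (exact permutation test, adjusted p = 0.163). The widest gap was 15923 bp on chromosome I, 22886 bp on chromosome III and 19703 bp on chromosome VI, against 19825 to 39176 bp on the others, so those of chromosomes I and VI were narrower than the widest gap of any other chromosome. As a share of these short spans it was 7.43% on chromosome I, 6.94% on chromosome III and 7.03% on chromosome VI, against 1.50% to 5.78% on the others.

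A gap between summits was not always a stretch without Red1. The names in the summit list carry 1 summit for each peak number, and how the underlying peaks were called is not given in the sources used here. The list is labelled as over 20, its lowest score is 20.0 and some peak numbers are missing, so a gap may hold summits that are not in the list. Every density, spacing, run and gap here holds only for the summits above that score. Broad Red1 peaks, called separately from the same libraries, covered part of several gaps. They covered 57.0% of the gap sequence on chromosome I, 20.9% on chromosome III and 29.9% on chromosome VI, against 8.23% to 18.1% on the others. Over the whole span the cover was 60.2%, 47.2% and 56%, against 23.9% to 34.7%, so the gaps of chromosome I were covered about as much as the chromosome as a whole and those of chromosomes III and VI less. Of the 12 gaps, 3 were covered over more than 50% of their length, against 2 of 305 (0.656%) on the other 13 chromosomes. This difference is a description and was not tested.

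The gap from 130253 to 141616 on chromosome I, 11363 bp wide, was the clearest case. It lay entirely within 1 broad Red1 peak that ran from 125968 to 142220, and entirely within Hop1 enrichment, with 70.5% of it in Rec8 peaks. Its left edge was the summit with the highest score of the 230 (2845), and its right edge scored 1166. The widest gap of chromosome I, 15923 bp from 168886 to 184809, was covered by Red1 over 62.1% of its length and by Hop1 over 62.8%, and 2 Rec8 peaks lay inside it. Only the remaining one, 11178 bp from 27466 to 38644, was mostly bare, with 6.23% Red1 and 6.08% Rec8. All 3 gaps of chromosome I thus held at least 1 whole Rec8 peak without a Red1 summit.

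The 3 widest of the 7 gaps of chromosome III lay near its middle, each less than 10% covered by broad Red1 peaks. The rest were covered by Red1 over 13.1% to 66.1% of their length. The widest, 22886 bp from 172629 to 195515, was covered by Red1 over 3.69%, by Hop1 over 4.83% and by Rec8 over 2.74%, and no peak of any of the 3 proteins lay wholly inside it. The next, 15336 bp from 138959 to 154295, was covered by Red1 over 6.36%, and one of 15186 bp, from 109104 to 124290, over 2.38%. The last of these held 2 Rec8 peaks, which together with the parts of other peaks covered 29.3% of it. A further gap of 14660 bp, from 223657 to 238317, was 66.1% covered by Red1 and 56.7% by Hop1, and it lay between summits with scores of 2740 and 2667. It was singled out after its values had been seen.

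Chromosome VI had the fewest gaps of all 16 chromosomes. The wider was 19703 bp long, from 194529 to 214232, and directly followed the run of 5 summits described above. Broad Red1 peaks reached into it from both sides and covered 38.6% of it. The other was 11767 bp long, from 139693 to 151460, with 15.3% covered. Neither held a whole Rec8 peak. Over all 12 gaps, 6 held none, against 224 of the 305 gaps of the other chromosomes.

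**Figure D3:**
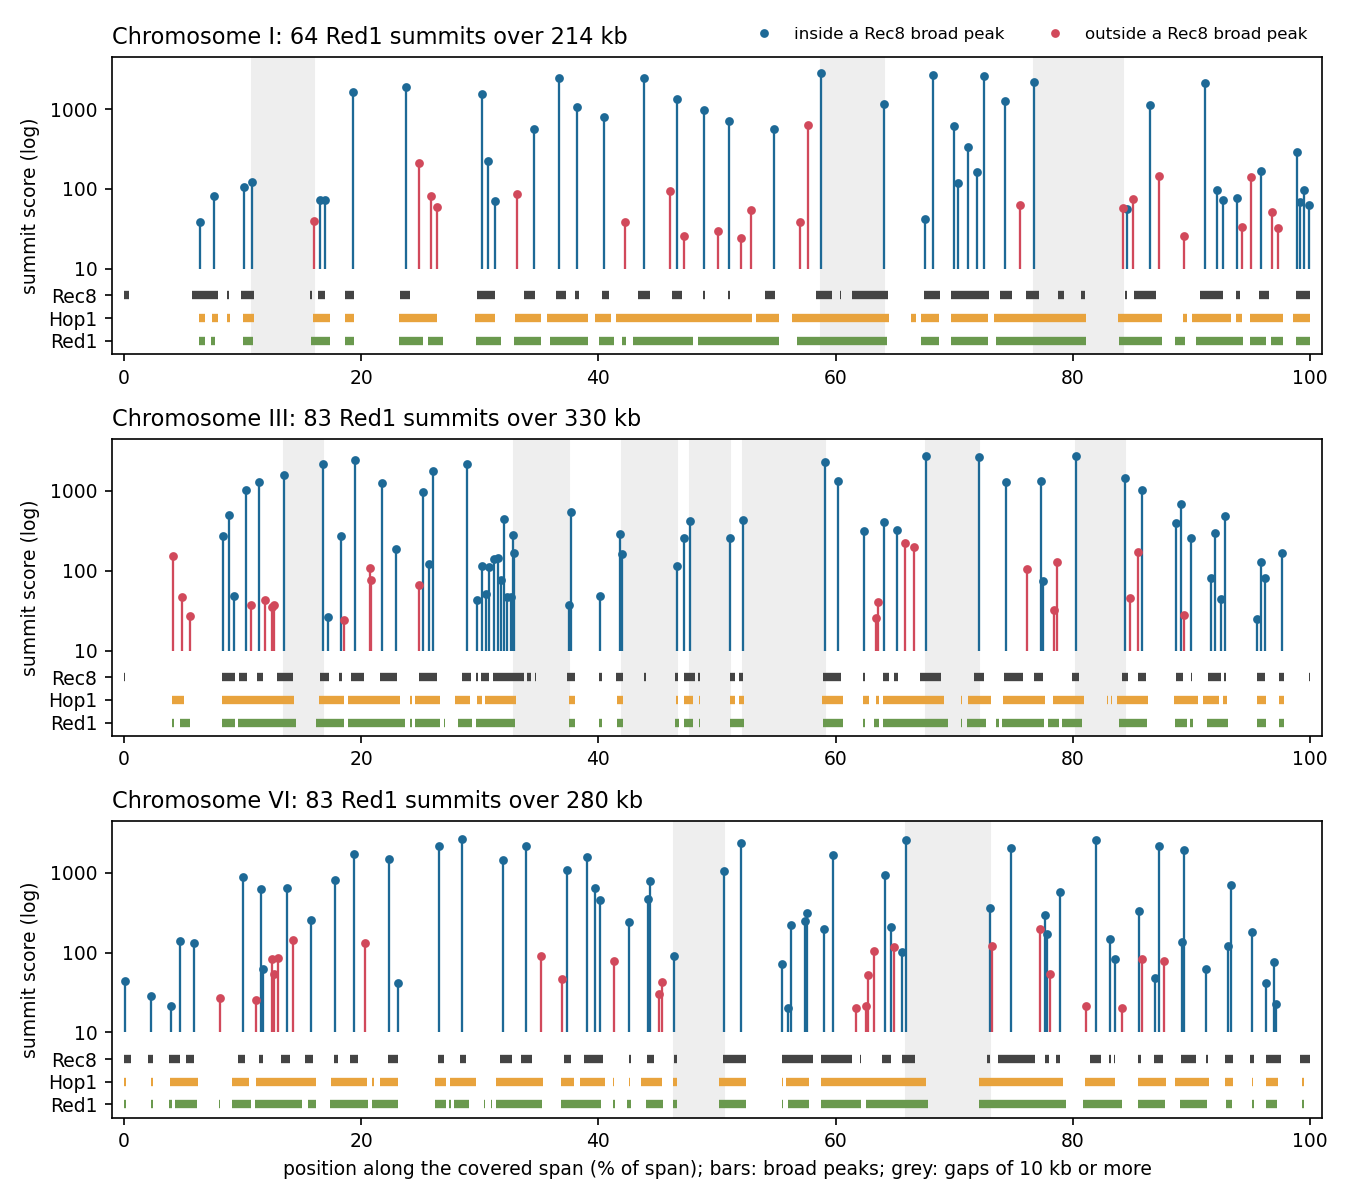
Red1 summits along chromosomes I, III and VI, with the position as percent of the span on the horizontal axis and the summit score on a logarithmic vertical axis; blue summits lie inside a Rec8 broad peak and red ones outside. Bars under each map show the Rec8, Hop1 and Red1 broad peaks, and grey shading shows the 3, 7 and 2 gaps of 10 kb or more. The 3 widest of chromosome III lie near its middle. All summits with a score above 1000 are blue.

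On each of the 3 chromosomes a smaller share of summits lay inside a Rec8 peak than on any of the other 13. On chromosome I the share was 65.6% (42 of 64; exact Clopper-Pearson 95% interval, 52.7 to 77.1%), on chromosome III 74.7% (62 of 83; 64.0 to 83.6%) and on chromosome VI 71.1% (59 of 83; 60.1 to 80.5%). Among the other 13 the share ran from 82.5% to 91.8%. The intervals cover counting error only and treat neighbouring summits as independent, which they are not. Averaged over chromosomes it was 70.5% and 86.4%, a difference of 15.9 percentage points (exact permutation test, p = 0.00179, adjusted p = 0.00429). Among the summits at or above the list median the difference was 4.72 percentage points, with 94.2% against 98.9% (exact permutation test, adjusted p = 0.0161). Very few of these summits lay outside Rec8 peaks, so that difference rests on small counts.

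Per length of sequence, summits were denser outside Rec8 peaks than on the other chromosomes and slightly sparser inside them. Outside Rec8 peaks there were 1.51 summits per 10 kb of such sequence on chromosome I, 0.904 on chromosome III and 1.28 on chromosome VI, against 0.223 to 0.572 on the others. The means were 1.23 and 0.369 (exact permutation test, p = 0.00179, adjusted p = 0.00429), and 0.107 and 0.0162 among the higher-scoring summits (adjusted p = 0.0161 in the same exact test). The means of the higher-scoring summits rest on very few, since 92.3% of 26 such summits on chromosome I lay inside Rec8 peaks. On chromosomes III and VI it was 92.9% of 42 and 97.5% of 40. Inside Rec8 peaks there were 6.12, 6.34 and 6.38 summits per 10 kb against 6.32 to 7.56, with means of 6.28 and 6.97 (exact permutation test, p = 0.00893, adjusted p = 0.0153). The latter difference did not pass the test without chromosome I (adjusted p = 0.0980 in the exact test) or among the higher-scoring summits (adjusted p = 0.627), where it was 0.12 per 10 kb in place of 0.69.

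For the number of Rec8 peaks per length no difference passed the test. Chromosome I had 1.54 Rec8 peaks per 10 kb, chromosome III 1.30 and chromosome VI 1.46, against 1.19 to 1.52, with means of 1.43 and 1.37 (exact permutation test, p = 0.282, adjusted p = 0.308). Their cover of the span was 32%, 29.6% and 33%, above the 23.1% to 28.4% of the others. The Rec8 peaks that held a Red1 summit made up 81.8% on chromosome I, 86.0% on chromosome III and 95.1% on chromosome VI, the highest of all 16 chromosomes. The averages were 87.7% and 85.7% (exact permutation test, p = 0.450, adjusted p = 0.450), and without chromosome VI the mean was 83.9%, lower than that of the others.

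Of the 117 Rec8 peaks on the 3 chromosomes, 14 held no Red1 summit, 66 held 1, 24 held 2 and 13 held 3 or more. The other 13 chromosomes had much the same make-up, with 209, 821, 329 and 116 of 1475. The empty Rec8 peaks were narrow on chromosomes I and III, with a median width of 558.5 bp for the 6 on chromosome I and 465 bp for the 6 on chromosome III, but not on chromosome VI, where the 2 empty peaks had a median width of 1349 bp. Empty peaks were narrow elsewhere too, with median widths from 333.5 bp on chromosome VII to 736 bp on chromosome X. Rec8 peaks that held 1 summit had median widths of 1848 bp on chromosome I, 1517 bp on chromosome III and 1392 bp on chromosome VI. The most summits in a single Rec8 peak were 5 on chromosomes I and VI and 8 on chromosome III. With Rec8 peaks of several summits included, 54.8%, 51.6% and 49.2% of the summits inside lay in the central 50% of the peak, against 50.6% to 62.8% on the others. In Rec8 peaks with 1 summit it lay nearer the midpoint. Its median distance from there was 0.346, 0.296 and 0.370 of the way to the edge, against 0.231 to 0.392 on the others.

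The 67 summits outside Rec8 peaks, 22 on chromosome I, 21 on chromosome III and 24 on chromosome VI, were mostly weak. Their median score was 55.7, 46.1 and 66.3, against 448, 283 and 316 for the summits inside. On the other chromosomes these medians ran from 30.8 to 53.9 outside Rec8 peaks and from 189 to 302 inside. Chromosomes I and VI thus lay above both ranges and chromosome III within both, which was not tested. The median distance to the nearest Rec8 peak edge was 1414 bp on chromosome I, 1433 bp on chromosome III and 1123 bp on chromosome VI, within the range of 358 to 2011 bp of the medians on the other chromosomes. Within 500 bp of an edge lay 6, 4 and 4 of them, and 6, 8 and 3 lay more than 2000 bp away. Whether these distances differed from those of any sequence outside Rec8 peaks was not tested. With 1000 bp allowed on either side of a Rec8 peak, the shares inside had means of 81.9% and 92.3%, a difference of 10.4 percentage points (exact permutation test, adjusted p = 0.00429, an alternative chosen after the data had been seen).

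Strong summits without Rec8 were rare. The strongest on chromosome I, at 127910, had a score of 623 and lay 1459 bp from the nearest Rec8 peak, in the same broad Red1 peak as the top-scoring summit at 130253. The next on that chromosome, at 57702, scored 212. On chromosome III the strongest were at 217728 (225) and 220161 (201), both in a broad Red1 peak from 211602 to 229741 that also held the chromosome's top-scoring summit. On chromosome VI they were at 226228 (199.4) and 49565 (146). The broad Red1 peaks of these 6 summits had a mean enrichment of 1.74 to 2.74-fold over input.

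Summits outside Rec8 mostly shared a broad Red1 peak with summits inside it. This held for 16 of the 22 on chromosome I (72.7%), 14 of the 21 on chromosome III (66.7%) and 22 of the 24 on chromosome VI (91.7%), against 45.0% to 73.7% on the other chromosomes. They lay singly or in small groups along the chromosome. Chromosome I had 15 stretches of consecutive outside summits, 9 of them single summits, chromosome III had 12 with 5 single, and chromosome VI had 17 with 13 single. The longest stretch held 3 summits on chromosomes I and III. On chromosome VI it held 4, from 182623 to 186916, with scores from 20.3 to 105.2, and was singled out after its values had been seen.

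Almost every summit lay inside a Hop1 peak, on these chromosomes as elsewhere. The shares were 100% on chromosome I and 96.4% on chromosomes III and VI, against 94.0% to 99.0% on the others, with means of 97.6% and 96.3% (exact permutation test, p = 0.213, adjusted p = 0.283). Hop1 peaks covered 62.5%, 46.7% and 56.8% of the span of chromosomes I, III and VI, against 22.9% to 32.9% of the others, so the like shares were reached over a larger covered length. For chromosome I, 0 of 64 summits outside Hop1 allows a share of up to 4.69% when 3 summits are taken as the limit of a count of 0, and the exact Clopper-Pearson 95% interval of the share inside starts at 94.4%. Of the 230 summits, 161 lay in both a Rec8 and a Hop1 peak, 63 in a Hop1 peak only, 2 in a Rec8 peak only and 4 in neither. On the other 13 chromosomes these classes held 1821, 250, 46 and 38 of 2155 summits. Nearly all summits away from Rec8 (63 of 67) were therefore at sites where Hop1 was enriched, as were most on the others (250 of 288).

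The 6 summits outside Hop1 peaks all had low scores. On chromosome III they were at 132812 (47.9) and 305643 (44.4), both inside a Rec8 peak, and at 18798 (26.7), which was 9049 bp from Rec8 and 1493 bp from Hop1. On chromosome VI they were at 136707 (42.7), 32259 (27.2) and 245463 (20.3), all outside Rec8 as well. The first of these was 16 bp from a Hop1 peak, and the second, 2767 bp from Hop1 and 4327 bp from Rec8, was the most isolated summit of the chromosome from either protein.

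Several summits often shared a single broad Red1 peak on the short chromosomes. The mean number of summits per broad Red1 peak was 2.67 on chromosome I and 2.44 on chromosomes III and VI, against 1.39 to 1.72 on the others. Neighbouring summits lay in the same broad Red1 peak in 63.5%, 65.9% and 64.6% of pairs, against 35.4% to 46.4%, and summits in broad peaks with 4 or more made up 51.6%, 59.0% and 56.6%, against 9.33% to 31.6%. The ranges did not overlap. Because both lists come from the same Red1 libraries, these values are descriptions and were not tested.

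The broad Red1 peaks were wide rather than numerous. Their median width was 3333 bp on chromosome I, 3046 bp on chromosome III and 3074 bp on chromosome VI, against 1402 to 2045 bp. Within them the summits were sparser, with 4.96, 5.33 and 5.29 per 10 kb of broad-peak sequence against 6.35 to 7.84. The most crowded was the peak of chromosome III with 12 summits described above. The next on that chromosome, from 32147 to 48278, held 7, the most crowded on chromosome I, from 108050 to 122649, held 6, and chromosome VI had 3 with 8 each, from 40657 to 51772, from 184896 to 199639 and from 211744 to 232403. These peaks were singled out after their values had been seen.

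**Figure D4:**
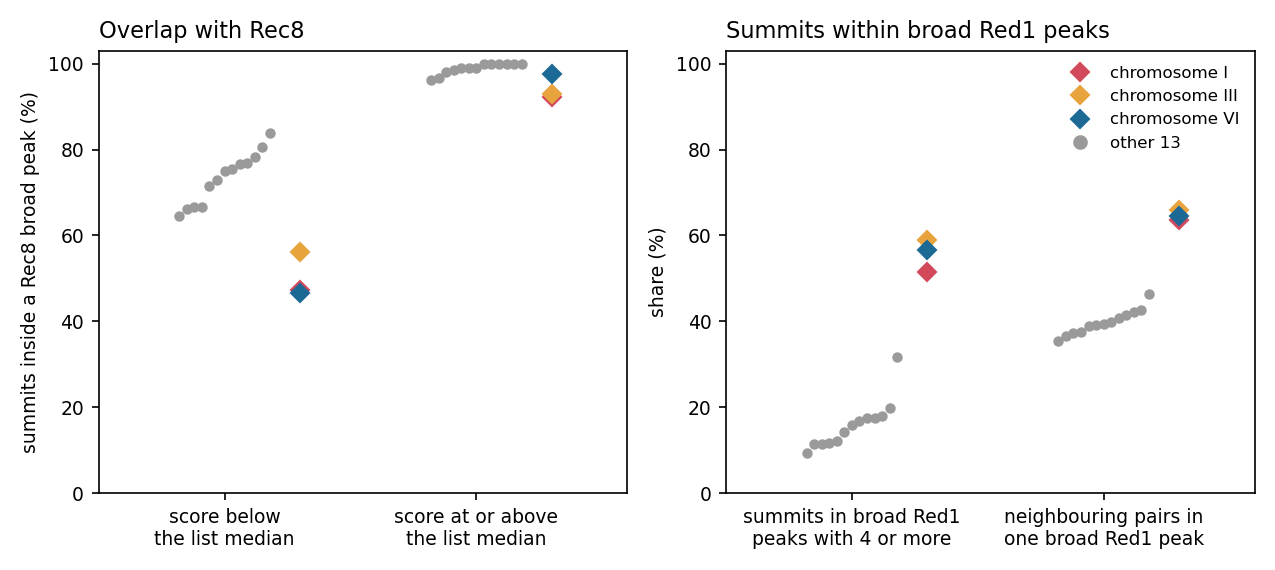
Left, the share of Red1 summits inside a Rec8 broad peak (percent) for summits with a score below, and at or above, the list median of 168.7; right, the shares of summits in broad Red1 peaks with 4 or more summits and of neighbouring summit pairs in 1 broad Red1 peak. Diamonds are chromosomes I, III and VI, and grey circles are the other 13, sorted by value; below the median the diamonds lie at 46.5% to 56.1%, under every circle.

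The score of a summit, on which its rank in the list rests, is given by the peak caller on the scale of a −log10 p- or q-value, and the sources used here do not name which. The median score was 111 on chromosome I, the lowest of all 16 chromosomes, 169 on chromosome III and 146 on chromosome VI, against 141 to 222 on the others. The difference between the means of 142 and 174 did not pass the test (exact permutation test, p = 0.0679, adjusted p = 0.102). With 20 kb at both ends of each span left out the order turned, with 192 against 178.

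The density of low-scoring summits was higher on the 3 chromosomes than on any other, but the make-up of the list by score was mostly within the range of the others. Summits below the list median numbered 1.77 per 10 kb of span on chromosome I, 1.24 on chromosome III and 1.53 on chromosome VI, above the 0.826 to 1.18 of the others. Those at or above it numbered 1.21, 1.27 and 1.43, against 0.886 to 1.30, so that only chromosome VI lay outside the range. The lowest-scoring 25% of the whole list made up 25.0%, 26.5% and 24.1% of the summits, against 19.3% to 31.9%, and the highest-scoring 25% made up 28.1%, 22.9% and 25.3%, against 18.5% to 29.9%. The highest-scoring 10% made up 15.6% of the summits on chromosome I, 10.8% on chromosome III and 14.5% on chromosome VI, against 5.88% to 13.1%, so that chromosomes I and VI lay above that range and chromosome III within it.

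The share of summits inside Rec8 peaks differed between lower and higher scores, although the scores inside and outside overlapped. On chromosome I they ran from 38.3 to 2845 inside and from 23.9 to 623 outside. Of the summits below the list median, 47.4% on chromosome I, 56.1% on chromosome III and 46.5% on chromosome VI were inside a Rec8 peak, against 64.6% to 83.9% on the others. Of those at or above the median, 92.3%, 92.9% and 97.5% were, against 96.2% to 100%. Chromosomes I and III therefore had the lowest shares of all 16 in the second class too, and chromosome VI did not.

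The strongest summits of each chromosome were all inside Rec8 and Hop1 peaks. On chromosome I they were at 130253, with a score of 2845 that ranked 2 of 2385, and at 150532 (2707, rank 13). On chromosome III they were at 223657 (2740, rank 10) and 265371 (2737, rank 11), each of which bordered a gap on its right. On chromosome VI they were at 89545 (2670, rank 17) and 239303 (2576, rank 28). The Rec8 peaks around these 6 summits had a mean enrichment of 2.02 to 3.32-fold over input, and 3 of the 6 bordered a gap.

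The ends of the 3 spans were unlike each other. A span is set by the lists and may stop short of the chromosome end. Within 20 kb of the ends of the span there were 3.75 summits per 10 kb on chromosome I, 1.75 on chromosome III and 2.75 on chromosome VI, against 0.5 to 3.25 on the others, with means of 2.75 and 2.06 (exact permutation test, p = 0.238, adjusted p = 0.285). Without chromosome I the mean was 2.25. On chromosome I the right end held 13 summits and the left end 2, the right end being the fullest of all ends of the 16 chromosomes. The counts at the left and right end were 3 and 4 on chromosome III, and 5 and 6 on chromosome VI. Away from the ends the densities were 2.81, 2.62 and 2.99 per 10 kb, against 1.86 to 2.41.

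The outermost summits were weak or moderate. On chromosome I the first lay at 18077 (score 38.3), 13772 bp into the span, and the last at 218519 (62.2). On chromosome III the first was at 14209 (154) and the last at 322520 (169), with 13727 and 7885 bp of span beyond them, and the first was 13334 bp from the nearest Rec8 peak, farther than any other of the 230. On chromosome VI they were at 9766 (44.2) and 281840 (22.8). Chromosome VI thus carried summits almost to the left end of its span and chromosome I almost to the right. Because the span edges come from these same lists, the distance of these summits to the true chromosome ends is unknown.

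Set beside each other, the 3 chromosomes shared the short spacing, the low share in Rec8 and the many summits per broad Red1 peak, and they differed in their gaps and in the place of their runs. Chromosome I had the lowest share in Rec8, no summit outside Hop1, few very close pairs, and gaps covered by Red1 about as much as its whole span. Chromosome III had the lowest density of the 3, the most gaps and the longest run, which lay in Rec8. Chromosome VI had the fewest gaps, the most runs and the highest share of Rec8 peaks with a summit. The 95% intervals of the shares in Rec8 overlapped among the 3 chromosomes, and differences among them were not tested, since the summits of 1 chromosome are not replicates.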

How the data were processed

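ChIP-seq peak lists of Red1, Hop1 and Rec8 and a Red1 summit list were analysed, each made from the combined replicates of wild-type samples. Bowtie and MACS 2.1.1 are named in the sources. Reads were mapped to the SK1 genome with perfect matches over 51 bp and extended to 200 bp, and broad peaks were called against input. The deposited broad-peak lists give the authors' fold enrichment over input and the −log10 q-value of each peak. The deposited summit list gives a score whose kind is not given in the sources used here. It is labelled as over 20, and its lowest score was 20.0. No summit name carries a letter after its number and no number is repeated. Numbers missing between the first and last listed made up 23.8% on chromosome I, 17.0% on chromosome III and 20.2% on chromosome VI, against 10.3% to 17.3% on the others.

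Summits were counted as inside a peak from 0 bp of distance. Positions of the S288C reference were not used, since intervals of the lists reach past the ends of its chromosomes, so no gene, centromere or sequence is given. Transcript levels were not used here for the same reason, and 3 samples whose labels contradict each other were left out. Comparisons used an exact permutation test over chromosomes with Benjamini-Hochberg adjustment over 12 measures; run and overlap counts and the test were tested on simulated data. Shares carry exact Clopper-Pearson 95% intervals. The lists hold no read counts, so the precision that depth gives is unknown.

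On each chromosome the text names the 3 runs with the most summits, the 3 widest gaps, the 2 highest-scoring summits, the 2 highest-scoring outside Rec8, every summit outside Hop1, and the first and last. The members, lists and tests were chosen with earlier results of these data known. Alternatives varied the score, close summits, ends, chromosomes, averaging, peak threshold and the distances that define overlap, runs, gaps and ends. Python 3.11.15, NumPy 2.4.6, SciPy 1.17.1, pandas 2.3.3 and Matplotlib 3.10.9 were used.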

Additional observations from a re-analysis of the deposited data

How the results depend on the processing

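Of 110 alternative values of the 12 measures, 99 kept their direction and their side of the threshold. Differences are given as the mean of chromosomes I, III and VI minus that of the other 13, each p below being adjusted and from the exact permutation test. Density (0.29 to 0.97 per 10 kb), median spacing (−2909 to −1041 bp), the share inside Rec8 (−18.0 to −4.72 percentage points) and density outside Rec8 (0.0904 to 1.02 per 10 kb) passed the test in every alternative, with a highest adjusted p of 0.03. For the last 2 measures the smallest differences came from the higher-scoring summits, very few of which lay outside Rec8. In that exact test with summits at or above the median score only, the share in runs differed by 2.41 points (p = 0.551), density inside Rec8 by −0.115 (p = 0.627), density near the ends by −0.340 (p = 0.5) and the median score by 132 (p = 0.361). The median score differed by 13.9 (exact p = 0.354) without 20 kb at both ends. With medians over chromosomes, the share in runs differed by 10.6 points (exact p = 0.0750) and density inside Rec8 by −0.594 (p = 0.101), and the latter by −0.607 (p = 0.0980) without chromosome I. The share of Rec8 peaks with a summit differed by −1.76 points (exact p = 0.552) without chromosome VI. Run steps of up to 1000 bp gave −1.69 points (exact p = 0.407), and gaps from 15000 bp gave −5.12 points (p = 0.163). The cause was not tested in any of these. Of 150 alternative values for single chromosomes, 49 moved out of their interval. For the share of the span in gaps this interval had no width, so any change counted as a move. No paired analysis was possible because each list combines its replicates. The absence of replicate lists and of read counts limits the precision of every value.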
